A study of Mus musculus with 24 samples.

Results

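The genes described here are 8 regulators of programmed cell death in mouse bone marrow: the pro-survival genes Bcl2, Bcl2l1 and Mcl1, the BH3-only gene Bcl2l11, the pore-forming genes Bax and Bak1, and the initiator caspase genes Casp8 and Casp9. They were chosen by symbol, as all array probes annotated to these names. Of the 8 symbols, 7 had a named probe, out of 19057 named genes on the array, and together they had 25 probes. Bax was not analysed here.

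The study profiled 4 related cell types from primary bone marrow of 2 inbred mouse strains, C57Bl/6 (B6) and DBA2 (D2), on 24 single-colour bead arrays, with 3 arrays in each of the 8 groups. LSK cells lack lineage markers and carry Sca-1 and c-Kit, a gate that holds stem and multilineage cells, and L-S-K+ cells lack Sca-1 but carry c-Kit and are called progenitors below. Gr1+ cells are granulocytic and Ter119+ cells are erythroid. No treatment or engineered allele is named for any group, ages are not given in the sources used here, and all groups share the tissue and the RNA and labelling kits. Whether replicate arrays stem from different mice is not stated in the labels, and p-values measure only the spread between these arrays, which may be technical.

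In the mitochondrial pathway of apoptosis, BAX and BAK open the outer mitochondrial membrane, cytochrome c escapes, and APAF1 then activates caspase-9. BCL2, BCL-XL (the long product of Bcl2l1) and MCL1 hold BAX and BAK in check, and BH3-only proteins such as BIM (the product of Bcl2l11) neutralise these guardians. Caspase-8 starts the other, death receptor pathway. In blood formation, MCL1 is known for its role in the survival of stem cells and neutrophils, and BCL-XL for its role in the survival of maturing erythroid cells.

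A probe counted as detected on an array at a detection p under 0.01 against the array's background, and levels are log2 intensities after background correction and quantile normalization. Levels of different probes are not comparable with each other. Differences between groups were tested for every probe detected on all 3 arrays of at least 1 group, which left 12668 of 45281 probes, by limma with Benjamini-Hochberg adjustment over all of them. A difference was called at an adjusted p under 0.05. Of the 25 probes of these genes, 11 from 6 genes passed the filter: 4 of 9 for Bcl2, 2 of 4 for Bcl2l1, 1 of 1 for Mcl1, 1 of 4 for Bcl2l11, 2 of 2 for Casp8 and 1 of 4 for Casp9. A probe that passed only through the group where it is high had to differ between groups. The Bak1 probe did not pass. The ± after a level is the SD over 3 arrays and after a difference the SE.

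The share of probes detected ran from 12.6% on replicate 2 of the D2 LSK cells to 27.4% on replicate 3 of the B6 Ter119+ cells. The 3 arrays taken as atypical, for a low share of detected probes or a low correlation with the rest of their group, were that D2 LSK array, replicate 1 of the D2 progenitors and replicate 2 of the B6 Ter119+ cells. Most calls that end or appear when one array is left out are named with it, and the range of counts over such fits is given at the end. The Ter119+ minus Gr1+ call of Bcl2 probe ILMN_1249021, lost in 4 of 24 such fits (limma adjusted p up to 0.0815), is not described further. Against their defining markers, all 6 progenitor genes were detected on every progenitor array, and 6 of 7 neutrophil genes on every Gr1+ array, Mmp8 being detected nowhere. Detection alone did not mark these fractions, because most genes of both lists were also detected in the other cell types. The progenitor list mean was highest on the progenitor arrays, at 10.3 to 10.7, against 8.31 to 9.41 elsewhere. Of the 5 LSK genes, Kit and Meis1 were detected on all LSK arrays, Hlf and Mecom on some and Flt3 on none, although the list's mean was highest there (6.89 to 7.54, against 5.08 to 6.78 elsewhere). The Ter119+ arrays carried 4 of 5 erythroid markers (Epb42 was detected nowhere), with a list mean of at least 10.7 on each, against 5.80 to 7.28 elsewhere. They also carried markers of other cells: the mean level of the B cell list lay between 6.60 and 7.55 on the 6 Ter119+ arrays and between 4.81 and 5.46 on the other 18 arrays. Ms4a1, which encodes CD20, was detected on the 6 Ter119+ arrays alone, whereas Pax5 was detected on no array. The list of mast cell, basophil and eosinophil genes lay between 8.56 and 9.32 on the Ter119+ arrays, against 5.18 to 6.90 elsewhere, with all 5 genes detected on all 6 Ter119+ arrays. The list of neutrophil genes lay between 10.6 and 11.1 on the Ter119+ arrays, between 12.4 and 12.6 on the Gr1+ arrays and between 7.93 and 10.2 on the others. The monocyte and macrophage list lay between 5.88 and 6.32 on the Ter119+ arrays, against 4.37 to 5.39 elsewhere, and the T and NK cell list between 5.59 and 6.02, against 4.24 to 5.39. The part of these cells in the Ter119+ results below was not tested, and in bulk RNA fewer cells of a type and less RNA per cell cannot be told apart.

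Bcl2l1 and Mcl1 are the members known as survival factors of a lineage, and their promoters are shown first for that reason. The RefSeq promoter windows used here hold 3 start sites for Bcl2l1 and 1 for Mcl1, on build GRCm38.p6, each with 300 bases around the start. The gene spans given below reach upstream of these windows, and whether further starts lie there was not tested. Capitals mark GATAA, the core of the site bound by GATA factors, or TTCNNNGAA, the core of the site bound by STAT factors, each searched on both strands. Bcl2l1 lies on the minus strand of chromosome 2 and Mcl1 on the plus strand of chromosome 3.
Bcl2l1, chr2:152828440-152828739: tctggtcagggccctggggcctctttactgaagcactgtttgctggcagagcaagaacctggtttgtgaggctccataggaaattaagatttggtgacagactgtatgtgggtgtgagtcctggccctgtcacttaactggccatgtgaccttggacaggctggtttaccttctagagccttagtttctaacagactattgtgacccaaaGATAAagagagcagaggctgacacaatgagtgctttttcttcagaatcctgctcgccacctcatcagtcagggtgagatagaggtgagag
Mcl1, chr3:95658471-95658770: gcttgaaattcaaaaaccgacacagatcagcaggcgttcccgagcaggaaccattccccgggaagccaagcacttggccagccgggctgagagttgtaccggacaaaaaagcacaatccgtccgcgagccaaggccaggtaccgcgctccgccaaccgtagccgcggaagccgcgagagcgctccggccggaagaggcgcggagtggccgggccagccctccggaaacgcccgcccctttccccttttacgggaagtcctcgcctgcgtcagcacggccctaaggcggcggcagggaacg
The Bcl2l1 window holds 1 GATAA match, a motif found in 25.41% of all 32851 RefSeq promoter windows of this length, and no TTCNNNGAA match, a motif found in 8.298% of them. The Mcl1 window and the other 2 Bcl2l1 windows, chr2:152830668-152830967 and chr2:152831679-152831978, hold neither. A match is a description of letters and not a binding site.

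Bcl2l1 (chr2:152758732-152833803, GRCm38.p6), which encodes BCL-XL, was detected in Ter119+ cells only, by both probes that passed the filter. Probe ILMN_2698430 read 5.99, 6.08 and 6.35 on the 3 B6 Ter119+ arrays and 6.40, 6.20 and 6.37 on the 3 D2 arrays, and it was not detected on any of the other 18 arrays, where it read 4.21 to 4.63. The Ter119+ arrays did not overlap the rest, and the strains did overlap. Probe ILMN_2647885 read 4.83, 5.56 and 5.17 in B6 and 5.73, 5.11 and 5.57 in D2 Ter119+ cells, and 4.14 to 4.46 elsewhere, again without detection. Against progenitors, the first probe was at least 2.46-fold higher in Ter119+ cells (log2 difference 1.86 ± 0.11, limma adjusted p = 1.44e-12) and the second at least 1.31-fold higher (1.09 ± 0.13, limma adjusted p = 1.54e-07). These bounds set the Ter119+ mean against the lowest level at which any probe was detected, because the other cell types had none. Against LSK cells the bounds were 2.38-fold and 1.27-fold, and against Gr1+ cells 2.32-fold and 1.24-fold. Both probes passed the filter only through the Ter119+ groups, so a difference from the other cell types was set in advance by the filter. The calls were kept under every alternative setting run. A further Bcl2l1 probe, which did not pass the filter, was detected on 1 B6 and 2 D2 Ter119+ arrays and on no other array, and the remaining one was detected nowhere. The strain difference in Ter119+ cells was 0.18 ± 0.15 and 0.28 ± 0.18 for the probes that passed, and neither was called (adjusted p 0.489 and 0.323).

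**Figure D1:**
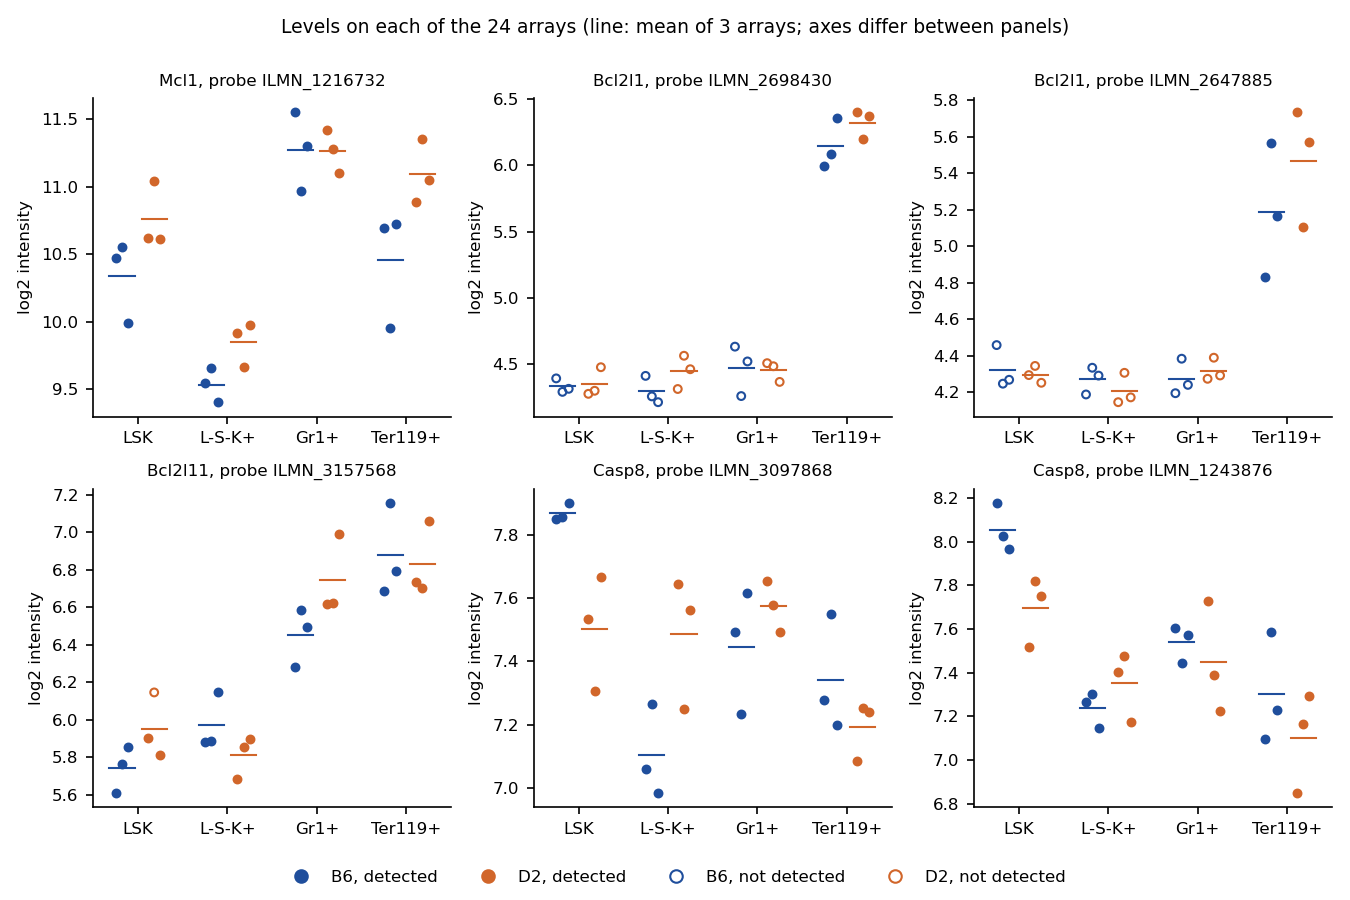
Log2 intensity of Mcl1, Bcl2l1 (both probes), Bcl2l11 and Casp8 (both probes) on each of the 24 arrays, by cell type and strain, with a line at the mean of 3 arrays and open points where the probe was not detected. Bcl2l1 was detected on the 6 Ter119+ arrays alone, and Mcl1 was lowest in the progenitors, between 9.40 and 9.97.

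Mcl1 (chr3:95656944-95663179), whose short-lived protein protects many blood cells, was detected on all 24 arrays by its 1 probe, ILMN_1216732. It was highest in Gr1+ cells, with 11.55, 10.96 and 11.30 in B6 and 11.42, 11.28 and 11.10 in D2. Ter119+ cells read 10.69, 9.95 and 10.72 in B6 and 10.89, 11.35 and 11.05 in D2. LSK cells read 10.47, 10.55 and 9.99 in B6 and 10.62, 11.04 and 10.61 in D2. Progenitors were lowest, with 9.54, 9.65 and 9.40 in B6 and 9.91, 9.66 and 9.97 in D2, and did not overlap the LSK or the Gr1+ arrays. Over both strains, Mcl1 was 2.99-fold higher in Gr1+ cells than in progenitors (log2 difference 1.58 ± 0.15, limma adjusted p = 5.03e-09) and 2.12-fold higher in Ter119+ cells than in progenitors (1.09 ± 0.15, adjusted p = 3.19e-06). It fell by 0.86 ± 0.15 on the log2 scale from LSK cells to progenitors (adjusted p = 0.000123). Gr1+ cells exceeded LSK cells by 0.72 ± 0.15 (adjusted p = 0.000296) and Ter119+ cells by 0.49 ± 0.15 (adjusted p = 0.00911). Ter119+ and LSK cells, neighbours in this order, did not differ beyond their spread (0.23 ± 0.15, adjusted p = 0.222), but without replicate 2 of the B6 Ter119+ cells, the lowest Ter119+ array, the difference was 0.35 and was called (adjusted p = 0.0402). The difference between progenitors and LSK cells was not called when arrays were scaled to their median or 75th percentile in place of quantile normalization (adjusted p 0.786 and 0.656). That between Ter119+ cells and progenitors was lost with median scaling (0.132). Gr1+ minus LSK was called in B6 (0.94 ± 0.22, adjusted p = 0.00107) but not in D2 (0.51 ± 0.22, adjusted p = 0.055). The limma test of this difference between the strains did not call it (-0.43 ± 0.31, adjusted p = 0.685). Of all probes, 50.7% were called in B6 and 53% in D2 for this pair. The difference between Ter119+ and Gr1+ cells was lost with both scalings (0.389 and 0.204), and it was called in B6 (-0.82 ± 0.22, adjusted p = 0.00375) but not in D2 (-0.17 ± 0.22, adjusted p = 0.593), and the test of that difference between the strains did not call it (0.65 ± 0.31, adjusted p = 0.313); 47.3% of all probes were called in B6 and 40.4% in D2.

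Bcl2 (chr1:106538176-106714290), the founding pro-survival gene of the family, was highest in LSK cells and progenitors and lowest in Gr1+ cells by its brightest probe, ILMN_1249366, 1 of 3 that passed the filter and are annotated to transcript NM_009741. It read 6.61, 6.79 and 6.76 in B6 LSK cells, 6.41, 7.05 and 5.98 in D2 LSK cells, 5.36, 6.34 and 5.97 in B6 progenitors and 6.33, 6.55 and 6.19 in D2 progenitors. In Gr1+ cells it was detected on 1 of 6 arrays and read 4.39 to 4.92. In Ter119+ cells it read 5.76, 5.66 and 5.35 in B6 and 4.45 (not detected), 5.48 and 5.75 in D2. The Gr1+ arrays did not overlap the LSK or progenitor arrays. Bcl2 fell by 1.95 ± 0.21 on the log2 scale from LSK to Gr1+ cells (limma adjusted p = 1.97e-08), by 1.48 ± 0.21 from progenitors to Gr1+ cells (adjusted p = 1.26e-06) and by 1.19 ± 0.21 from LSK to Ter119+ cells (adjusted p = 3.64e-05, and 0.121 with median scaling). Ter119+ cells were 1.69-fold above Gr1+ cells (adjusted p = 0.00318) and 1.64-fold below progenitors (adjusted p = 0.00543). The first was lost with median scaling (adjusted p = 0.0698) and in D2 alone (0.51, adjusted p = 0.175), and the second with median (0.259) or 75th percentile scaling (0.124) and in B6 alone (0.453). LSK cells and progenitors did not differ beyond their spread by this probe (-0.48 ± 0.21, adjusted p = 0.071), but the difference was called without replicate 3 of the D2 LSK cells (adjusted p = 0.0254), replicate 2 of the B6 progenitors (0.0344) or replicate 1 of the D2 Ter119+ cells (0.0339). Probes ILMN_2706514 and ILMN_1249021, dimmer and detected on 12 arrays each, were detected on no Gr1+ array and on 7 and 9 of the 12 LSK and progenitor arrays. Both were called lower in Gr1+ than in LSK cells, by at least 1.11-fold (adjusted p = 9.81e-05) and at least 1.18-fold (adjusted p = 1.13e-05). These 2 bounds are close to 1 because the probes lie near background. The order by ILMN_2706514 was not that of the brightest probe in D2, where its mean was 4.67 in LSK cells and 5.02 in Ter119+ cells. Ter119+ cells were below LSK cells by this probe in B6 (-0.83 ± 0.23, adjusted p = 0.00572) and not in D2 (0.35 ± 0.23, adjusted p = 0.227). The strain dependence of that difference was called (1.18 ± 0.33, adjusted p = 0.0425). A limma F test of a strain difference that depends on cell type did not call the probe (adjusted p = 0.0604). It was detected on 1 of 3 D2 LSK arrays, so these values rest in part on background readings. Its Gr1+ minus LSK difference was -1.35 in B6 (adjusted p = 4e-05) and -0.33 ± 0.23 in D2, with no call (adjusted p = 0.24). The limma test of that difference between the strains did not call it (1.02 ± 0.33, adjusted p = 0.136). Of all probes, 50.7% were called in B6 and 53% in D2 for this pair. The other 5 Bcl2 probes did not pass the filter, 4 of them being detected on no array and 1 on a single B6 Ter119+ array.

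The fourth Bcl2 probe that passed, ILMN_2682162, is annotated to another transcript of the gene, NM_177410, and had a different order. It read 5.57, 5.12 and 5.55 in B6 Ter119+ cells and 5.65, 6.06 and 6.67 in D2 Ter119+ cells, all detected, and its mean was 5.60 ± 0.14 in B6 and 4.94 ± 0.89 in D2 LSK cells. It was 1.82-fold higher in Ter119+ than in Gr1+ cells (log2 difference 0.87 ± 0.25, limma adjusted p = 0.00572), a call lost with median scaling (adjusted p = 0.0603) and in B6 alone (0.57, adjusted p = 0.199). Its difference from progenitors (0.62 ± 0.25, adjusted p = 0.0438) was lost under many alternatives, among them leaving out replicate 1 of the D2 progenitors (adjusted p = 0.151), replicate 3 of the D2 Ter119+ cells (0.131) or replicate 1 of the B6 progenitors (0.105), and more narrowly without any one of 6 other arrays (replicate 1 of the B6 LSK cells, 2 of the B6 progenitors, 3 of the B6 Gr1+ cells, 1 and 3 of the B6 and 2 of the D2 Ter119+ cells, 0.0504 to 0.0833). The difference from LSK cells was not called (0.50 ± 0.25, adjusted p = 0.102), except without replicate 3 of the D2 LSK cells (0.75, adjusted p = 0.00627). On each array the log2 ratio of this probe to ILMN_1249366 was then taken. The pair was chosen after the values were seen, so the ratios are a description with no test. Their mean was 0.36 ± 0.66 in Ter119+ cells, -0.97 ± 0.49 in progenitors, -1.33 ± 0.91 in LSK cells and 0.26 ± 0.44 in Gr1+ cells (SD, n = 6 each). The Ter119+ ratios were -0.18, -0.54 and 0.20 in B6 and 1.19, 0.58 and 0.92 in D2, so their SD also holds a difference between the strains. The ratio was higher in Ter119+ cells than in progenitors by 1.33, with no overlap. It was higher than in LSK cells by 1.69 and than in Gr1+ cells by 0.10, both with overlap. Against the other NM_009741 probes the differences from progenitors were 0.89 and 0.84, both with overlap. Without background correction the difference from progenitors was 0.53, with overlap, and that from LSK cells 0.72. ILMN_2682162 was detected on 4 of 6 LSK, 4 of 6 progenitor and 2 of 6 Gr1+ arrays, and ILMN_1249366 on 5 of 6 Ter119+ and 1 of 6 Gr1+ arrays, so the ratios rest in part on background readings.

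**Figure D2:**
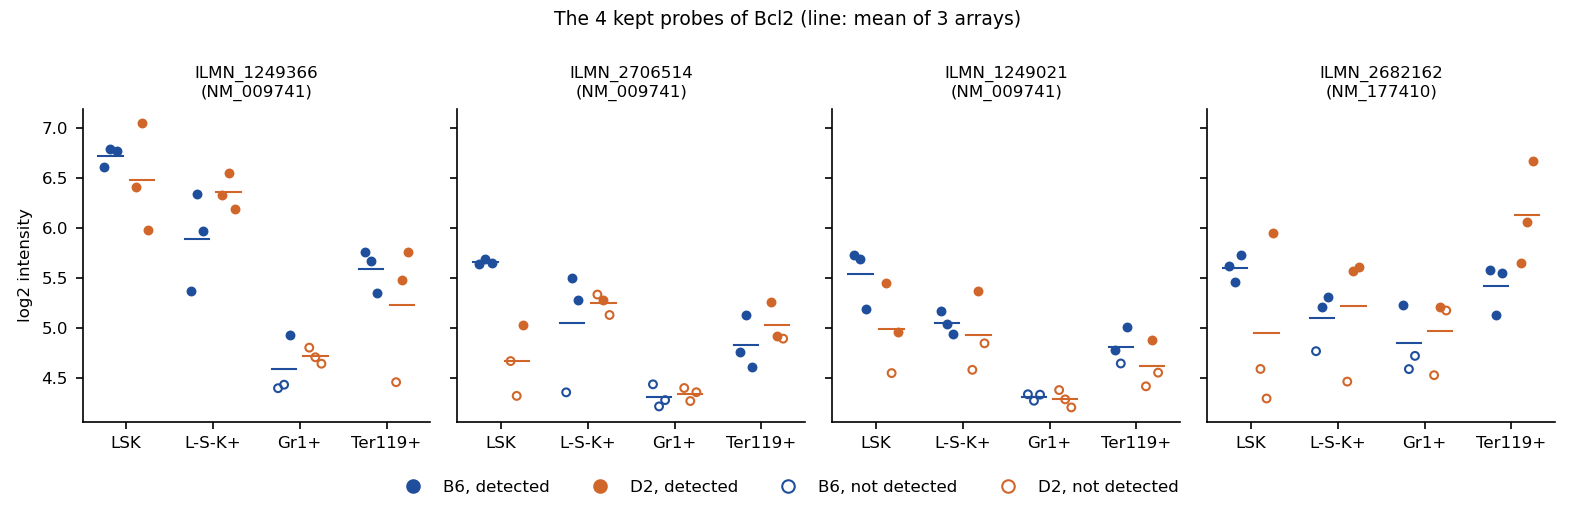
Log2 intensity of the 4 Bcl2 probes that passed the filter on each of the 24 arrays, by cell type and strain, with a line at the mean of 3 arrays and open points where the probe was not detected. The first 3 have their lowest mean in Gr1+ cells in both strains. The fourth, annotated to NM_177410, is also lowest there in B6 (mean 4.84). In D2 its LSK (4.94) and Gr1+ (4.97) means are close, and it reaches 6.67 in D2 Ter119+ cells.

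Bcl2l11 (chr2:128126038-128162547), which encodes the BH3-only protein BIM, was higher in both mature fractions than in LSK cells and progenitors. Probe ILMN_3157568 read 5.61, 5.76 and 5.85 in B6 LSK cells and 5.90, 6.14 (not detected) and 5.81 in D2 LSK cells. Progenitors read 5.88, 5.89 and 6.15 in B6 and 5.69, 5.85 and 5.90 in D2. Gr1+ cells read 6.28, 6.58 and 6.49 in B6 and 6.62, 6.62 and 6.99 in D2, and Ter119+ cells 6.69, 7.15 and 6.79 in B6 and 6.73, 6.70 and 7.06 in D2. All 12 mature arrays lay above all 12 LSK and progenitor arrays. Bcl2l11 was 2.01-fold higher in Ter119+ than in LSK cells (log2 difference 1.01 ± 0.12, limma adjusted p = 2.49e-07) and 1.95-fold higher than in progenitors (adjusted p = 5.66e-07). Gr1+ cells were 1.68-fold above LSK cells (adjusted p = 1.07e-05) and 1.63-fold above progenitors (adjusted p = 2.08e-05). Neither LSK cells and progenitors (0.04 ± 0.12, adjusted p = 0.81) nor Ter119+ and Gr1+ cells (0.26 ± 0.12, adjusted p = 0.0755) differed beyond their spread, although the latter difference was called without replicate 3 of the D2 Gr1+ cells (adjusted p = 0.0381) or replicate 1 of the B6 Ter119+ cells (0.0471). Both Gr1+ differences were lost with median scaling (adjusted p 0.157 and 0.373), and the second also with scaling to the 75th percentile (adjusted p = 0.105). The other 3 Bcl2l11 probes did not pass the filter, 2 were detected on no array and 1 on 5 arrays, 3 of them Ter119+ arrays. The Ter119+ arrays, on which Bcl2l1 was detected, were also those with the highest mean of this BH3-only gene, while Bcl2, by its brightest probe, was lower there than in LSK cells.

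Bak1 (chr17:27019812-27028627), whose protein forms the mitochondrial pore together with or in place of BAX, was at the edge of detection. Its 1 probe was detected on 4 of 24 arrays, 1 each in B6 LSK cells, B6 progenitors, D2 progenitors and B6 Ter119+ cells. Its group means lay between 4.28 and 4.77, so no order of the groups could be read from it.

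Casp8 (chr1:58795233-58847503), the initiator caspase of the death receptor pathway, was detected on all 24 arrays by both of its probes, in a narrow range of 6.85 to 8.18. Probe ILMN_1243876 read 8.18, 8.03 and 7.96 in B6 LSK cells, 7.52, 7.82 and 7.75 in D2 LSK cells, 7.27, 7.30 and 7.15 in B6 progenitors and 7.40, 7.48 and 7.17 in D2 progenitors. In Gr1+ cells its group means were 7.54 ± 0.08 in B6 and 7.45 ± 0.26 in D2, and Ter119+ cells had means of 7.30 ± 0.25 and 7.10 ± 0.23. It fell by 0.58 ± 0.12 on the log2 scale from LSK cells to progenitors (limma adjusted p = 0.000616), by 0.38 ± 0.12 to Gr1+ cells (adjusted p = 0.00925) and by 0.67 ± 0.12 to Ter119+ cells (adjusted p = 6.53e-05). Probe ILMN_3097868 fell by 0.39 ± 0.11 from LSK cells to progenitors (adjusted p = 0.00834) and by 0.42 ± 0.11 to Ter119+ cells (adjusted p = 0.00338), and Gr1+ minus LSK was not called. For that pair both probes were called in B6 (-0.51 and -0.42, adjusted p 0.0165 and 0.0322) and neither in D2 (-0.25 and 0.07, adjusted p 0.241 and 0.741). The limma test of that difference between the strains called neither (adjusted p 0.766 and 0.414). Of all probes, 50.7% were called in B6 and 53% in D2. The first probe's difference between Ter119+ and Gr1+ cells (-0.29 ± 0.12, adjusted p = 0.0467) was lost without any one of 16 of the 24 arrays (0.0502 to 0.141). The other 5 calls were all lost when arrays were scaled to their median or 75th percentile (adjusted p 0.631 to 0.959). In B6 alone the second probe fell by 0.76 ± 0.16 from LSK cells to progenitors (adjusted p = 0.00108), whereas in D2 alone the difference was -0.02 ± 0.16 (adjusted p = 0.96), beside 25% of all probes called in B6 and 24.2% in D2. An F test asking if the D2 minus B6 difference depends on cell type did not call this probe (adjusted p = 0.176).

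Casp9 (chr4:141793612-141815978), the initiator caspase of the mitochondrial pathway, gave the largest strain difference among these probes. Probe ILMN_1217061 was detected on all 12 B6 arrays and on none of the 12 D2 arrays. In B6 it read 8.09, 7.83 and 8.01 in LSK cells, 7.97, 7.97 and 8.52 in progenitors, and in the mature fractions 8.89, 9.13 and 8.86 (Gr1+) and 8.76, 8.14 and 8.98 (Ter119+). In D2 it read 4.17 to 4.73 throughout. It was lower in D2 by at least 6.29-fold in LSK cells (log2 difference -3.47 ± 0.20, limma adjusted p = 1.04e-11), at least 8.35-fold in progenitors (-3.81 ± 0.20, adjusted p = 2.19e-12), at least 14.8-fold in Gr1+ cells (-4.69 ± 0.20, adjusted p = 3.8e-14) and at least 13.6-fold in Ter119+ cells (-4.35 ± 0.20, adjusted p = 1.47e-13). The probe passed the filter only through B6 groups, so a difference between the strains was set in advance by the filter. All 4 calls held under every alternative setting run. The other 3 Casp9 probes were detected on no array of either strain, so a second probe of the gene gave no reading in either strain. Of the 12668 probes that passed the filter, 44 probes of 33 genes were detected on all 12 B6 and on no D2 array, and 3 probes of 2 genes the other way round. Probe sequences were not used here, and whether the D2 transcript matches the probe as the B6 transcript does was not tested. The D2 readings are values of this probe alone.

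**Figure D3:**
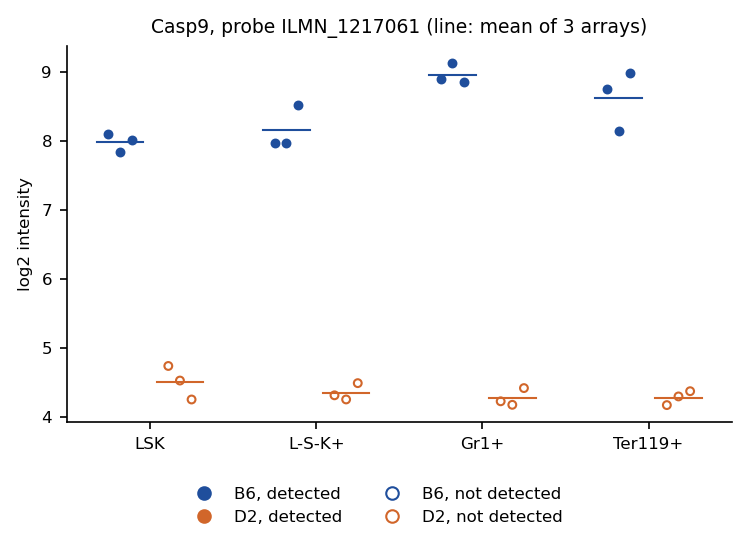
Log2 intensity of Casp9 probe ILMN_1217061 on each of the 24 arrays, by cell type and strain, with a line at the mean of 3 arrays and open points where the probe was not detected. All 12 B6 arrays lie between 7.83 and 9.13 and all 12 D2 arrays between 4.17 and 4.73.

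Within B6, Casp9 was higher in Gr1+ than in LSK cells by 0.98 ± 0.20 on the log2 scale (limma adjusted p = 0.000292, where 50.7% of all probes were called) and than in progenitors by 0.80 ± 0.20 (adjusted p = 0.00165, where 55.5% were called). Ter119+ cells were above LSK cells by 0.65 ± 0.20 (adjusted p = 0.0125, where 41.2% were called), and above progenitors by 0.47 ± 0.20 without a call (adjusted p = 0.0697, where 38.9% were called). LSK cells and progenitors (0.18 ± 0.20, adjusted p = 0.586) and Ter119+ and Gr1+ cells (-0.34 ± 0.20, adjusted p = 0.179) did not differ beyond their spread. In D2 Casp9 was called between no pair of cell types, with differences from -0.23 to 0.01 on undetected readings, where all probes were called at shares of 24.2% to 54.3% (53% for Gr1+ against LSK cells, 42.3% and 43.2% for Ter119+ cells against progenitors and LSK cells). The moderated F test of a strain difference that depends on cell type called Casp9 (adjusted p = 0.033) and no other of the 11 probes, against 5.23% of all 12668. It was lost without any one of 9 arrays, replicates 2 and 3 of the B6 LSK cells, 1 of the D2 LSK cells, 1, 2 and 3 of the B6 Gr1+ cells, 1 and 2 of the D2 Gr1+ cells and 2 of the D2 Ter119+ cells (adjusted p 0.0509 to 0.0844), and with scaling to the median (0.975) or 75th percentile (0.958).

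Apart from Casp9, the strains differed little in these genes. In LSK cells, 2 of the 11 probes were called lower in D2 and 0 higher, where 7.67% of all probes were called (5.18% lower, 2.49% higher). The second was Bcl2 probe ILMN_2706514, which read 5.64, 5.68 and 5.65 in B6 and 4.67 (not detected), 4.32 (not detected) and 5.02 in D2 LSK cells, without overlap (-0.99 ± 0.23, limma adjusted p = 0.00671). The other 3 Bcl2 probes had differences of -0.24, -0.55 and -0.66 in LSK cells, and none was called (adjusted p 0.158 to 0.713). The call of ILMN_2706514 was lost with median scaling (adjusted p = 0.0786) and when the 2 LSK groups were fitted alone (adjusted p = 0.0665). In progenitors, 1 of 11 was called, lower in D2 (5.33% of all probes called, 3.32% lower and 2.01% higher), and in Gr1+ cells 1 of 11, lower in D2 (5.84% of all probes called, 3.46% lower and 2.38% higher), which was Casp9 both times. In Ter119+ cells, 2 of 11 were called (15.4% of all probes), Casp9 lower (8.23%) and Mcl1 higher in D2 (7.15%). The Mcl1 difference was 0.64 ± 0.22 (1.56-fold, adjusted p = 0.04997), and the D2 arrays, from 10.89, did not overlap the B6 arrays, up to 10.72. It lay at the threshold and was lost without replicate 2 of the B6 Ter119+ cells, the lowest of them (adjusted p = 0.305), without replicate 2 (0.212) or 3 (0.11) of the D2 Ter119+ cells and without the 3 atypical arrays named above (0.197), and it rose slightly above the threshold without most other single arrays (0.0508 to 0.0605). In the other cell types Mcl1 differed by 0.42 ± 0.22 in LSK cells, 0.32 ± 0.22 in progenitors and -0.01 ± 0.22 in Gr1+ cells, with no call.

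Between cell types, averaged over the strains, calls were common among all probes, and most counts for these genes lay near that background. From LSK cells to progenitors, 3 of 11 probes were called, all lower (39.8% of all probes were called, 18.4% of all lower and 21.4% of all higher). From progenitors to Gr1+ cells 6 of 11 were called (66.9% of all probes), 3 higher (29.1%) and 3 lower (37.8%), and from progenitors to Ter119+ cells 6 of 11 (54.6%), 5 higher (24.4%) and 1 lower (30.2%). Against LSK cells, 7 of 11 were called in Gr1+ cells (64.4%), 3 higher (29.8%) and 4 lower (34.5%), and 7 of 11 in Ter119+ cells (54%), 3 higher (26.2%) and 4 lower (27.8%). Ter119+ against Gr1+ cells gave 8 of 11 (56.9%), 6 higher (30.8%) and 2 lower (26%). With median scaling the counts were 0 of 11 for progenitors and 4 and 3 for Gr1+ and Ter119+ cells against LSK cells, 3 for Ter119+ cells against progenitors and 2 for Ter119+ against Gr1+ cells. The shares of all probes given here and below are those by quantile normalization. For progenitors against LSK cells, calls over all probes fell with median scaling as well (last section). Such shares are not given for the other comparisons. The counts by quantile normalization include Casp9, called higher in Gr1+ cells than in LSK cells (0.38 ± 0.14, adjusted p = 0.0252) and progenitors (0.36 ± 0.14, adjusted p = 0.0286), although D2 readings were at background. The first was lost without replicate 2 of the B6 LSK, 3 of the D2 LSK, 2 of the B6 Gr1+ or 3 of the D2 Gr1+ cells (0.0607 to 0.0723), and the second without replicate 1 or 2 of the B6 progenitors, 2 of the D2 progenitors, 2 of the B6 Gr1+ or 3 of the D2 Gr1+ cells (0.0596 to 0.0730). The median difference of the 11 probes was 0.41 in Ter119+ minus Gr1+ cells, beside 0.09 over all probes, and 0.20 in Ter119+ cells minus progenitors, beside -0.08.

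**Figure D4:**
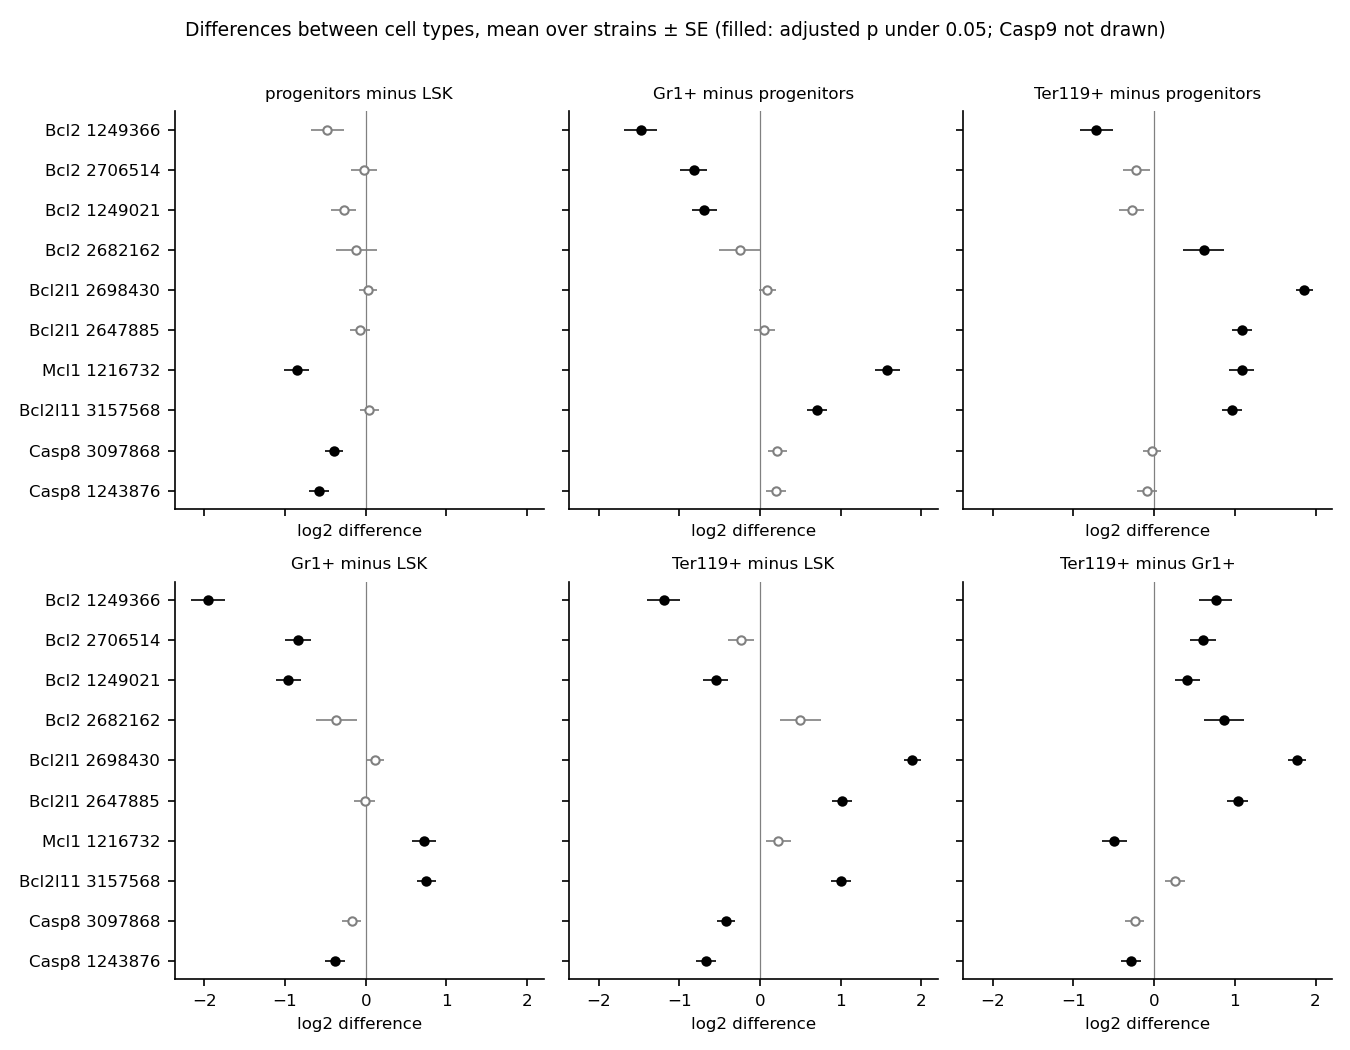
Log2 difference between pairs of cell types, averaged over the strains, with its SE, for the 10 probes other than Casp9, filled where the adjusted p was under 0.05. Both Bcl2l1 probes stand to the right in the 3 panels with Ter119+ cells first, while the upper 3 Bcl2 probes stand to the left in the 2 panels with Gr1+ cells first.

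The other genes of the pathway were described through 49 genes in 9 lists, of which 43 had a probe and 33 passed the filter, with 52 probes. Between strains the shares called lay at or below those of all probes, apart from the Ter119+ probes called higher, which lay close to theirs. In LSK cells, where 5.18% of all probes were called lower and 2.49% higher, 0 of 52 were called higher and 2 lower in D2: Mlkl, the effector of necroptosis (-0.95 ± 0.27, limma adjusted p = 0.0282), and 1 of 3 probes of Birc5, which encodes survivin (-0.87 ± 0.26, adjusted p = 0.0448). Mlkl was lost without replicate 1 or 3 of the B6 or replicate 2 of the D2 LSK cells (adjusted p 0.0795 to 0.182), and Birc5 without any one of 15 of the 24 arrays (up to 0.215). In progenitors and Gr1+ cells 0 of 52 were called, where 5.33% and 5.84% of all probes were. In Ter119+ cells, where 7.15% of all probes were called higher and 8.23% lower, 4 of 52 were called, all higher in D2. With median scaling 1 of 52 was called there, lower, and with the 75th percentile 1, higher.

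Among them were 2 further BH3-only genes. Bbc3, which encodes PUMA, a p53 target, ranged from 6.12 to 6.66 in B6 and from 7.66 to 8.61 in D2 Ter119+ cells, 3.14-fold higher in D2 (1.65 ± 0.22, limma adjusted p = 1.21e-05). Bmf, which encodes a BH3-only protein held at the cytoskeleton, ranged from 4.75 to 5.51 in B6 and from 6.02 to 6.83 in D2, 2.39-fold higher in D2 (1.26 ± 0.23, adjusted p = 0.000414). The strain difference varied between cell types for both, by the F test (adjusted p 0.0169 for Bbc3 and 0.02 for Bmf). That test called these 2 of the 52 probes, where 5.23% of all 12668 probes were called. Bmf was detected on no LSK or progenitor array, so its test sets the Ter119+ difference in part against background readings. In the other cell types the D2 minus B6 difference of Bbc3 was 0.17 in LSK cells, 0.59 in progenitors and 0.43 in Gr1+ cells, and that of Bmf between -0.21 and 0.10, none of them called. Mdm2, a negative regulator of p53, was higher by one probe (0.99 ± 0.22, adjusted p = 0.00351) and not by the other (0.20 ± 0.17, adjusted p = 0.494). Diablo, whose protein counters the inhibitor of apoptosis proteins, was higher by 0.71 ± 0.22 (adjusted p = 0.0288) and is named here after its value was seen. With arrays scaled to their median or 75th percentile, Bbc3 (adjusted p 0.426 and 0.171) and Mdm2 (0.849 and 0.73) were no longer called, and Bmf was not with median scaling (0.135). The B cell list was also higher in D2 than in B6 Ter119+ cells (mean 7.25 against 6.79), and the part of those cells in these differences was not tested.

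From LSK cells to progenitors, 15 of 52 probes rose and 11 fell (21.4% and 18.4% of all probes), with a median of 0.09 (all probes 0.04). For a gene with several probes, the values here and in the next comparisons are those of the called probe with the largest difference in each comparison, so the probe can change from one comparison to the next. The apoptosome and mitochondrial release list had 8 of 12 probes higher and 0 lower, among them Htra2, a mitochondrial protease (1.72 ± 0.21, limma adjusted p = 1e-06), and Aifm1, a mitochondrial flavoprotein (1.17 ± 0.25, adjusted p = 0.000842). All 3 Htra2 probes were called, from 1.47, and the other Aifm1 probe was not (0.37, adjusted p = 0.0946). Birc5 rose by 1.28 ± 0.19 (adjusted p = 9.96e-06), with all 3 probes called, from 0.90. Casp4, an inflammatory caspase, fell by 1.32 ± 0.14 by one probe (adjusted p = 7.04e-08) and not by the other (0.12, adjusted p = 0.641). Bok, a pore-forming relative of BAX, fell by 1.10 ± 0.23 (adjusted p = 0.000645) and Tnfrsf10b, a death receptor, by 0.92 ± 0.23 (adjusted p = 0.0028). The Bok probe passed the filter only through an LSK group. Its lower levels in the other cell types, here and below, were set in advance by the filter. With median scaling 7 of 52 were called, 4 of them higher among the 12 of the apoptosome list, and with the 75th percentile 12, 6 of them in that list. With median scaling Aifm1, Casp4 and Tnfrsf10b were lost (adjusted p 0.129 to 0.201).

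From progenitors to Gr1+ cells, 20 of 52 probes rose and 15 fell (29.1% and 37.8% of all probes), with a median of 0.05 (all probes -0.11). With median scaling 11 rose and 6 fell, and with the 75th percentile 16 and 7. Fas, the receptor upstream of caspase-8, was not detected on any LSK or progenitor array by its brighter probe and ranged from 7.70 to 8.20 in Gr1+ cells, at least 8.04-fold higher than in progenitors (log2 difference 3.51 ± 0.13, limma adjusted p = 3.41e-16). It was the strongest rise of the comparison among these lists, and the other Fas probe rose by 1.46. The brighter probe could not pass the filter through LSK cells or progenitors, so a difference from them was set in advance by the filter. Casp4 rose by 1.85 ± 0.14 by one probe (adjusted p = 4.02e-11) and not by the other (0.21, adjusted p = 0.339), and Cflar, an inhibitor of caspase-8 activation, rose by 1.57 ± 0.20 (adjusted p = 3.37e-07). The BH3-only list had 5 of 6 probes higher and 0 lower, against 1 and 0 with median scaling and 2 and 0 with the 75th percentile. The apoptosome and mitochondrial release list had 3 higher and 6 lower of 12, against 2 and 5 with median scaling. Htra2 fell by 1.55 ± 0.16 (adjusted p = 8.52e-09), Diablo was 2.83-fold lower (adjusted p = 1.01e-08) and Aifm1 fell by 1.24 ± 0.25 (adjusted p = 0.000166). All 3 Htra2 probes were called (-1.28 to -1.55), and the other Aifm1 probe was not (-0.25, adjusted p = 0.204). Against LSK cells, Gr1+ cells had 23 probes higher and 9 lower (29.8% and 34.5% of all probes), with a median of 0.29 (all probes -0.07), and 14 and 1 with median scaling. Apaf1, which builds the platform that activates caspase-9, rose by 2.09 ± 0.19 (adjusted p = 1.39e-09; all 3 probes called, from 1.28) and Bid, the BH3-only link between caspase-8 and mitochondria, by 1.31 ± 0.20 (adjusted p = 6.2e-06). Casp2 (-1.32 ± 0.12) and Diablo (-1.18 ± 0.15) were lower than in LSK cells by quantile normalization and not by either scaling (adjusted p 0.222 to 0.288), and Bok was lower by at least 1.79-fold (adjusted p = 3.93e-06).

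From progenitors to Ter119+ cells, 13 of 52 probes rose and 18 fell (24.4% and 30.2% of all probes), with a median of -0.12 (all probes -0.08). With median scaling 5 rose and 2 fell, and with the 75th percentile 8 and 10. The apoptosome and mitochondrial release list had 9 of 12 probes lower and 0 higher, against 1 lower with median scaling and 7 with the 75th percentile. Among them Cycs, the gene of cytochrome c, fell by 1.13 ± 0.16 on the log2 scale (limma adjusted p = 2e-06; 0.074 with median scaling), and by 0.44 by its other probe (adjusted p = 0.0190). Mlkl fell by 1.70 ± 0.19 (adjusted p = 8.61e-08) and Fadd, the adaptor between death receptors and caspase-8, by 1.17 ± 0.17 (adjusted p = 4.67e-06; lost with both scalings, 0.134 and 0.0548), with all 4 Fadd probes called, from -0.71. Bmf was not detected in LSK cells or progenitors and was at least 1.88-fold higher in Ter119+ cells than in progenitors (adjusted p = 2.93e-08), and Birc5 rose by 1.48 ± 0.17 (adjusted p = 2.11e-07), with all 3 probes called, from 1.11. Bcl2a1b, a pro-survival gene with near-identical copies whose probes may share signal, was at least 1.69-fold higher (adjusted p = 1.72e-07). Neither its probe nor that of Bmf was detected in LSK cells or progenitors. Neither could pass the filter through those cells, so a difference from them was set in advance by the filter. Against LSK cells, Ter119+ cells had 16 probes higher and 13 lower (26.2% and 27.8% of all probes; 7 and 1 with median scaling), with a median of -0.05 (all probes -0.02), led by Birc5 (2.42 ± 0.19, adjusted p = 1.74e-10) and by Mlkl on the lower side (-1.43 ± 0.19, adjusted p = 9.09e-07; 0.0666 with median scaling). Against Gr1+ cells, Ter119+ cells had 14 higher and 21 lower (30.8% and 26% of all probes; 8 and 9 with median scaling), with a median of -0.27 (all probes 0.09). The death receptor list had 7 of 14 probes lower and 0 higher there, with each scaling too, with Fas lower by 2.99 ± 0.13 (log2 difference -2.99, adjusted p = 6.2e-15), and Mlkl and Casp4 by 1.79 and 1.60 (differences -1.79 and -1.60). The other Casp4 probe was not called there (-0.39, adjusted p = 0.0792). Bnip3l, which encodes the mitophagy receptor NIX of maturing red cells, was 0.89 ± 0.12 higher than in Gr1+ cells (adjusted p = 1.2e-06), a call lost with both scalings (0.231 and 0.161).

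**Figure D5:**
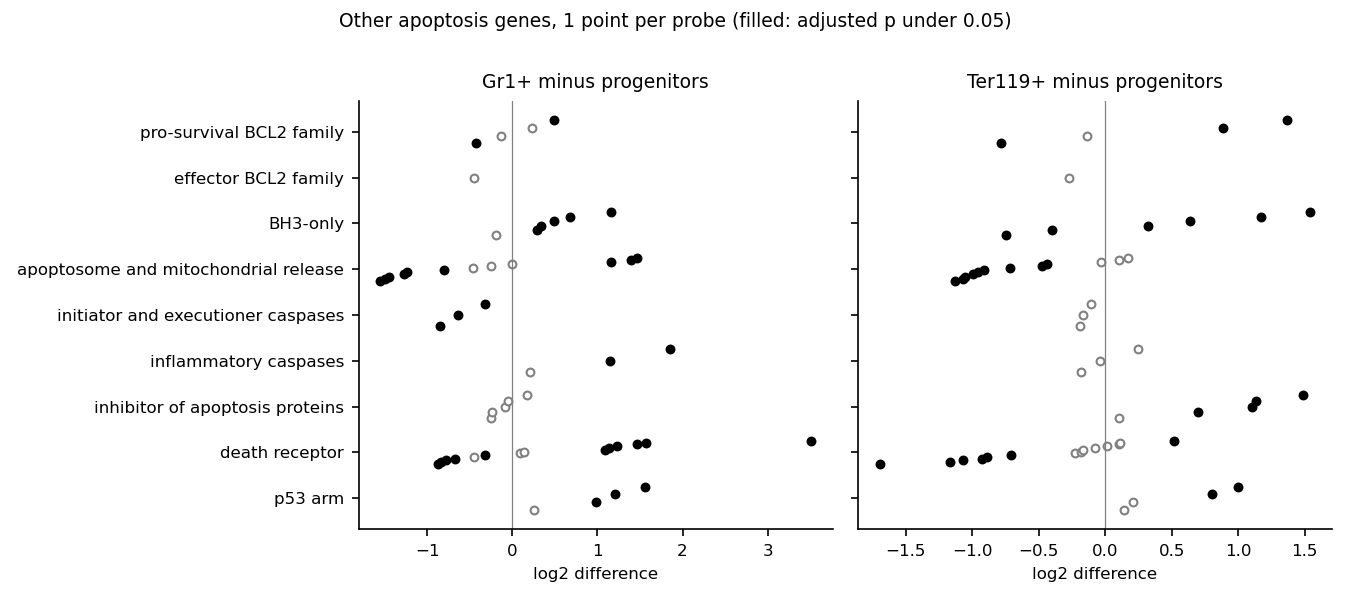
Log2 difference of the 52 probes of the other apoptosis genes, by list, between Gr1+ cells and progenitors and between Ter119+ cells and progenitors, averaged over the strains and filled where the adjusted p was under 0.05. Fas stands alone at 3.51 on the left, and in Ter119+ cells 9 of 12 apoptosome and mitochondrial release probes were called lower, against 1 with median scaling.

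The genes whose levels over the 24 arrays were most like each member were found by Pearson's r, a description in which arrays share groups. Bcl2l1 was followed by Apol11b (r = 0.987), Blk (0.982), a kinase of B cells, and Trim10 (0.981), a gene of erythroid cells. Mcl1 was followed by Samd9l (0.934), Skil (0.929) and Zcchc24 (0.926), and Bcl2 by Nsa2 (0.944), Pdrg1 (0.940) and Akr1b10 (0.923). Bcl2l11 was followed by Hvcn1 (0.938), Vcam1 (0.927) and Fam214b (0.927). Casp8 had the least similar partners, Stat4 (0.832), Sting1 (0.825) and D630004K10Rik (0.809). Casp9, whose pattern is that of the strains, was followed by Kif2c (0.986), Fgfr1op2 (0.984) and Trim11 (0.982). Over the 8 group means the same pairs had r between 0.876 and 0.998.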

How the data were processed

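Total RNA of 24 mouse bone marrow samples, in 8 groups of 3 taken from the labels, was read on single-colour bead arrays. The deposited intensity of each probe is the authors' export, averaged over beads and not normalized, and the submitters' processing notes name GenomeStudio. A deposited fraction, called a p-value per the file headers, rises with intensity and is taken here as 1 minus detection p. The authors' deposited log2 values, used as an alternative, match log2 raw intensities after quantile normalization to within 0.00113.

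Background was corrected with limma 3.58.1 (neqc, offset 16) in R 4.3.3, followed by quantile normalization and log2. One mean per group was fitted over 24 arrays with 16 residual and 6.28 prior degrees of freedom, and moderated tests were two-sided. A fold against a group with no detection is a bound, set from the lowest detected signal of each array. The fit was tested on simulated data. The number of arrays limits the precision. Figures were drawn with matplotlib 3.10.9 in Python 3.11.15.

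Of 45281 probes, 34885 had 1 gene symbol, 18 several and 10378 none in the supplied annotation. Named were all probes of the members, then per comparison up to 3 called genes of highest and 3 of lowest difference from 9 pathway lists, and the 3 genes most like each member. The members and lists were chosen with earlier results of these data known. Equal replicate numbers were not taken as pairs in the main fit. Deviations of same-numbered arrays correlated at -0.38 to 0.366 over 84 pairs, with a median of 0.077. The mean was -0.033 for arrays of different number and group, and 14 of 24 arrays correlated best with their own number. Whether arrays of equal number share a source was not tested. Alternatives changed the background correction, scaling, filter, probe per gene, block, prior, weights, groups fitted and strain, and left out each array.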

Additional observations from a re-analysis of the deposited data

Results flagged for a closer look

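By the moderated F test of limma with Benjamini-Hochberg adjustment, the difference between strains varied between the 4 cell types for 1 of the 11 member probes. It also varied for 2 of the 52 probes of the other apoptosis genes, where 5.23% of all 12668 probes were called. Casp9 had an adjusted p of 0.033, with B6 levels between 7.98 in LSK cells and 8.96 in Gr1+ cells. It was detected on none of the 12 D2 arrays, so its strain differences are bounds, and the test sets the B6 levels against background readings. The call was lost in 9 of the 24 fits without 1 array (adjusted p 0.0509 to 0.0844) and with scaling to the median (0.975) or 75th percentile (0.958). Bmf had an adjusted p of 0.0200, with D2 above B6 by 1.26 in Ter119+ cells and differences between -0.21 and 0.10 in the others. Its probe was detected on no LSK or progenitor array, so the differences in those cells are between background readings. Bbc3 had an adjusted p of 0.0169, with D2 above B6 by 1.65 in Ter119+ cells and by 0.17 to 0.59 in the others. The Bmf call was lost without replicate 1 of the B6 Ter119+ cells (0.0736) and without replicate 2 (0.0737) or 3 (0.0978) of the D2 Ter119+ cells. The Bbc3 call was lost without replicate 1 of the B6 (0.0625) or of the D2 Ter119+ cells (0.0537). With the same scalings Bmf (0.975 and 0.697) and Bbc3 (0.975 and 0.837) were not called either.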

How the results depend on the processing

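Of 43 called differences of member probes, 1477 of 1607 alternative values kept direction and call, 128 lost the call and 2 reversed. Of 67 not called, 2390 of 2435 stayed so and 45 were called. The Bcl2l1 differences of Ter119+ cells and the Casp9 strain differences kept their calls throughout, and the 2 reversals were Casp9 in D2 alone, at background (-0.079 for Gr1+ minus progenitors, -0.23 for Gr1+ minus LSK). Member probes called fell with median scaling from 2 to 1 for the strains in LSK cells and in Ter119+ cells, from 3 to 0 for progenitors against LSK, from 6 to 3 for Ter119+ against progenitors, from 7 to 4 for Gr1+ and to 3 for Ter119+ against LSK, from 8 to 2 for Ter119+ against Gr1+ and from 1 to 0 in the F test. With the 75th percentile they were 1 for the strains in Ter119+ cells, 0 for progenitors against LSK, 4 for Ter119+ against Gr1+ and 0 in the F test. With 1 probe per gene they were 1 for the strains in LSK cells and 4 for Ter119+ against LSK and against Gr1+. Fitting only the groups compared gave 1 for the strains in LSK and in Ter119+ cells. In Ter119+ cells the strains also gave 1 with detection p under 0.05, with the replicate block and without the 3 atypical arrays. B6 alone gave 5 for Ter119+ against Gr1+. D2 alone gave 1 for progenitors against LSK, 3 for Gr1+ against LSK and 4 for Ter119+ against Gr1+. Array weights gave 11 for Ter119+ against LSK and 2 in the F test, and no detection filter gave 0 in the F test. Leaving out 1 array gave 2 to 3 for the strains in LSK and 1 to 2 in Ter119+ cells, 3 to 4 for progenitors against LSK, 5 to 6 for Gr1+ and 5 to 7 for Ter119+ against progenitors, 6 to 7 for Gr1+ and 7 to 9 for Ter119+ against LSK, 6 to 9 for Ter119+ against Gr1+ and 0 to 2 in the F test. The replicate block moved 2 of 110 member results, both past the threshold (Mcl1 strains in Ter119+ cells, adjusted p = 0.0552, and Casp8 Ter119+ against Gr1+, 0.0504). Whether the replicate numbers pair the samples is not stated, and 14 of 24 arrays correlated best with their own number. The 52 pathway probes gave, for the strains in Ter119+ cells, 1 call with either scaling, 16 with array weights, 9 without replicate 2 of the D2 LSK cells and 7 without replicate 1 of the B6 or of the D2 Ter119+ cells, and for progenitors against LSK, Ter119+ against progenitors and Ter119+ against LSK 7, 7 and 8 calls with median scaling, against 26, 31 and 29. Scaling moved the median D2 minus B6 difference of all probes in LSK cells from -0.09 to -0.81 (median) and -0.57 (75th percentile), and in Ter119+ cells from -0.01 to -0.41 and -0.22; of the strain calls in LSK cells 32.5% were higher in D2, against 3.86% and 6.47%, and in Ter119+ cells 46.5%, against 11.5% and 17.7%. Median scaling reduced all calls for progenitors against LSK from 5038 to 929. The cause was not tested. Levels near background limit the dimmer Bcl2, Bcl2l1 and Bak1 probes, and 3 arrays per group limit all.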
